A study of Drosophila melanogaster with 4 samples.

Results

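The accessible regions described here lie on U, a string in the dm3 assembly of the Drosophila genome made of sequence that could not be placed on a chromosome. Members are the peaks whose chromosome name is U itself, which leaves out the separate string Uextra. There were 250 such peaks among 5145 in the longer deposited list, called the long list, and 244 among 4027 in the shorter, called the short list. That is 4.86% of the long list (95% interval 4.29 to 5.48) and 6.06% of the short list (5.34 to 6.84). They covered 124 kb in the long list and 123 kb in the short list, or 6.01% of the bases in the long list and 7.24% in the short list.

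The lists come from ATAC-seq, which uses the Tn5 transposase to cut and tag open DNA, on nuclei of S2 cells, an established Drosophila embryonic line. The labels describe 2 libraries with the treatment KD H1, a knockdown of the linker histone H1, and 2 control libraries with the treatment LacZ. Each of the 4 libraries is labelled with both lists, so which treatment a list belongs to was not known. Whether differences between the lists are differences between H1-depleted and control cells is therefore not known. There is 1 list of each kind and no replicate, so intervals cover counting error over peaks, and no test across libraries was possible. Neighbouring peaks can share a source of signal, which makes the intervals too narrow. Library depth is unknown, since the lists hold no read counts.

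Linker histone H1 binds the nucleosome where DNA enters and leaves it and favours compact chromatin. In Drosophila, heterochromatin around the centromeres is rich in transposable elements and satellite repeats, and H1 is known to help keep many of its repeats silent. Sequence of this kind is hard to assemble, so much of it ended up in the unplaced strings. Neighbouring pieces of U need not be neighbours in the genome, and copies of 1 repeat can sit in several pieces. No annotation or sequence of this build was used here, so the regions are named by position and carry no gene or repeat name.

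Peaks on U were stronger within their lists than arm peaks. The intervals of their median ranks overlapped those of Uextra peaks and of Het scaffold peaks. Strength here is the deposited area under the peak caller's significance curve, which grows with both height and width. The median U peak stood at percentile 58.8 of the long list by strength (95% interval 53.3 to 68.2) and at percentile 61.0 of the short list (53.7 to 67.9). The other peaks stood at 49.6 in the long list (48.2 to 51.0) and 49.6 in the short list (48.0 to 51.1). Peaks of the major arms stood at 47.3 in the long list (45.6 to 49.0) and 47.5 in the short list (45.4 to 49.3). Peaks of Uextra stood at 57.1 in the long list (52.8 to 60.8) and 53.1 in the short list (50.4 to 56.3). Het scaffold peaks stood at 53.5 in the long list (47.6 to 59.7) and 54.4 in the short list (47.8 to 62.4). By the deposited summit significance, whether −log10 p or −log10 q, the median U peak stood at percentile 59.9 of the long list (53.5 to 68.0) and 61.4 of the short list (55.0 to 69.2). The strongest 10% of the long list held 39 U peaks, or 15.6% of U peaks (11.3 to 20.7) against 10% of all peaks. That of the short list held 32, or 13.1% (9.15 to 18.0) against 10%. The odds of lying in the strongest 10% were higher on U than on the arms, 2.44 times in the long list (1.69 to 3.51) and 1.96 times in the short list (1.30 to 2.93). Against the heterochromatic Het scaffolds the odds ratio was 1.23 in the long list (0.727 to 2.07) and 0.885 in the short list (0.515 to 1.52), and both intervals include 1. Against Uextra it was 0.801 in the long list (0.549 to 1.17) and 0.968 in the short list (0.646 to 1.45). Of the Uextra peaks, 18.8% of the long list were in its strongest 10%. Against all other peaks the odds ratio on U was 1.72 in the long list (1.20 to 2.45) and 1.39 in the short list (0.943 to 2.04), and the interval of the short list includes 1.

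A single region dominated the area on U. In the long list it ran from 5288465 to 5303488, 15024 bp, with an area of 339468, a summit −log10 p of 42.3 and a −log10 q of 36.1. In the short list the matching peak ran from 5288470 to 5302047, 13578 bp, with an area of 214077, a −log10 p of 33.8 and a −log10 q of 28.1. It ranked first by area in both lists, over all chromosomes. It held 61.7% of the summed area of U peaks in the long list and 51.5% in the short list, but 12.1% of the U bases in the long list and 11.1% in the short list. The second strongest U peak of the long list had an area of 22278, so that the first was 15.2 times as large. The second of the short list had 20150 and the ratio was 10.6.

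The edges of that region differed between the lists on 1 side. The left ends lay 5 bp apart. On the right, the short list had a gap of 156 bp after 5302047 and then a separate peak from 5302204 to 5303429, 1226 bp wide, with a −log10 q of 22.5. That second piece ranked 32 in the short list. Both pieces together filled 98.96% of a 14960 bp stretch in the short list. In the long list the region was a single peak with its summit 2380 bp from the left end, and in the short list the summit lay 2100 bp from the left end. The long list had 2 small peaks beside it that the short list did not. One was on the left from 5288132 to 5288282, with a −log10 q of 1.79. The other was on the right from 5304745 to 5304919, with a −log10 q of 5.68, and it was the strongest U peak of the long list without a partner in the short list.

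**Figure D1:**
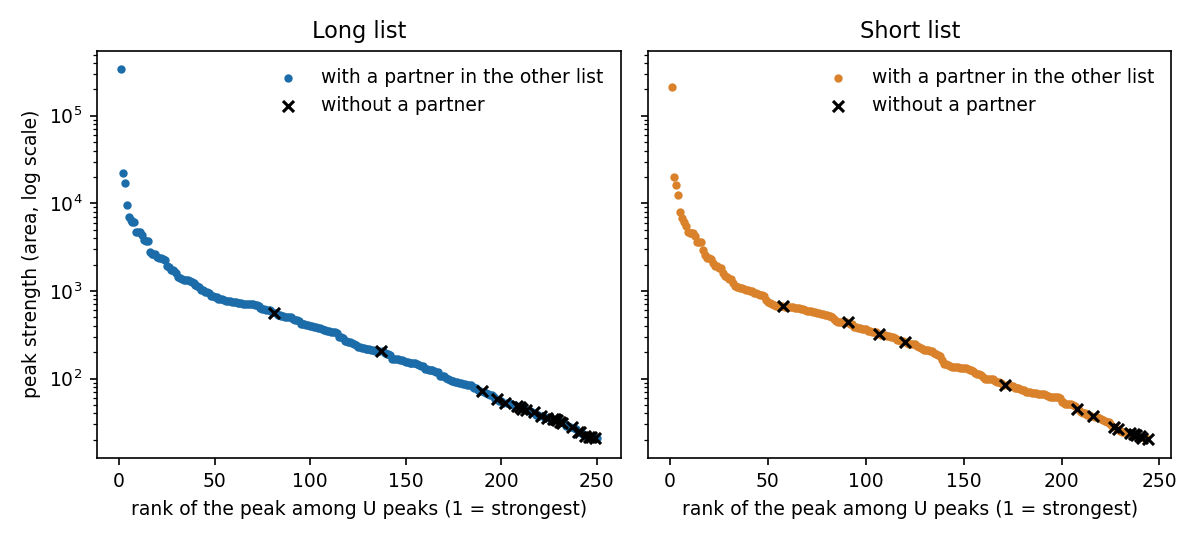
Strength of each U peak (area, log scale) against its rank among U peaks, for the long list and the short list. Dots are peaks with a partner in the other list and crosses are peaks without one. The top peak of each list, with 339468 in the long list and 214077 in the short list, stands more than 10 times above the next, and most crosses are at the weak end.

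Most other long regions of U had nearly the same borders in both lists. With the dominant region counted, peaks over 1000 bp numbered 21 on U in the long list, 8.4% of U peaks against 5.54% of the long list, and 20 in the short list, 8.20% against 6.08% of the short list. In the long list the share was 11.7% on the Het scaffolds, 6.15% on the arms and 1.01% on Uextra. In the short list it was 11.1% on the Het scaffolds, 8.36% on the arms and 0.838% on Uextra. Without the dominant region, the other 20 long U peaks held 29.6% of the U bases in the long list, and the other 19 held 29.0% in the short list. In 17 one-to-one pairs both peaks were over 1000 bp. Summits were at the same base in 13 of these, and widths differed by at most 20 bp in 15. The condition that both peaks pass 1000 bp leaves out long peaks with a shorter partner. They were the long-list peaks starting at 3694131, of 1099 bp against 789 bp in the short list, and at 1089334, of 1030 bp against 987 bp in the short list. The long-list peak starting at 463, of 1506 bp, was split in the short list. The second strongest region ran from 5684957 to 5689003 in the long list, 4047 bp with a −log10 q of 14.0. In the short list it ran from 5684956 to 5688991, 4036 bp with a −log10 q of 13.8. The third in area ran from 1092979 to 1097504 in the long list and from 1092980 to 1097494 in the short list, with a width of 4526 bp and a −log10 q of 10.1 in the long list, and 4515 bp and 9.43 in the short list. A broad but lower region from 5767946 to 5771827 in the long list was 3882 bp wide with a −log10 q of 5.47. Its short-list partner was 3867 bp wide with a −log10 q of 5.32. A narrower region from 6832721 to 6834287 had more significance for its size, with 1567 bp and a −log10 q of 18.2 in the long list, and 1552 bp and 15.2 in the short list.

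The 10 strongest U peaks of each list were spread over much of U, with the first starting at 1092979 in the long list and at 1092980 in the short list. Beyond those named, those of the long list ran from 7887832 to 7889887, from 7542864 to 7545118, from 8294018 to 8295644, from 9457009 to 9458138 and from 9771280 to 9772343. Their long-list widths were 2056, 2255, 1627, 1130 and 1064 bp, in that order, and their −log10 q ran from 7.33 to 9.46. The top 10 of the short list held the same regions apart from the one starting at 9457009, with the second piece of the dominant region in its place. The −log10 q of the 4 shared ones in the short list ran from 7.56 to 7.78.

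U peaks had partners in the other list in most cases. A partner is any peak of the other list that overlaps by at least 1 bp. In the long list, 226 of 250 U peaks had one, 90.4% (86.1 to 93.8), and in the short list 229 of 244, 93.9% (90.1 to 96.5). The share without a partner was 9.60% on U in the long list (6.25 to 13.9), against 33.1% of all long-list peaks, and 6.15% in the short list (3.48 to 9.94), against 12.2% of all short-list peaks. On Uextra it was 9.38% in the long list and 31.3% in the short list, on the Het scaffolds 10.7% in the long list and 3.52% in the short list, and on the arms 42.4% in the long list and 2.61% in the short list. The shares on U were below those of all peaks in both lists, as were those on the Het scaffolds. They depended on how lists were paired. With the long list trimmed to the length of the short list, the share was 2.44% on U in the long list (0.797 to 5.60), against 20.5% of all long-list peaks, and 16.0% on U in the short list (11.6 to 21.2), against 17.9% of all short-list peaks. In that setting the U interval of the short list includes the share of all peaks. With a reciprocal overlap of 50% the share was 14.4% on U in the long list (10.3 to 19.4), against 38.2% of all long-list peaks, and 12.3% on U in the short list (8.45 to 17.1), against 21.1% of all short-list peaks. For a long-list peak, the odds ratio for having no partner was 0.144 on U against the arms (0.0940 to 0.220) and 1.03 on U against Uextra (0.640 to 1.65). For a short-list peak it was 2.44 on U against the arms (1.36 to 4.38) and 0.144 on U against Uextra (0.0841 to 0.245). Against the Het scaffolds the intervals include 1 in both lists, at 0.882 (0.482 to 1.61) in the long list and 1.80 (0.718 to 4.50) in the short list.

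**Figure D2:**
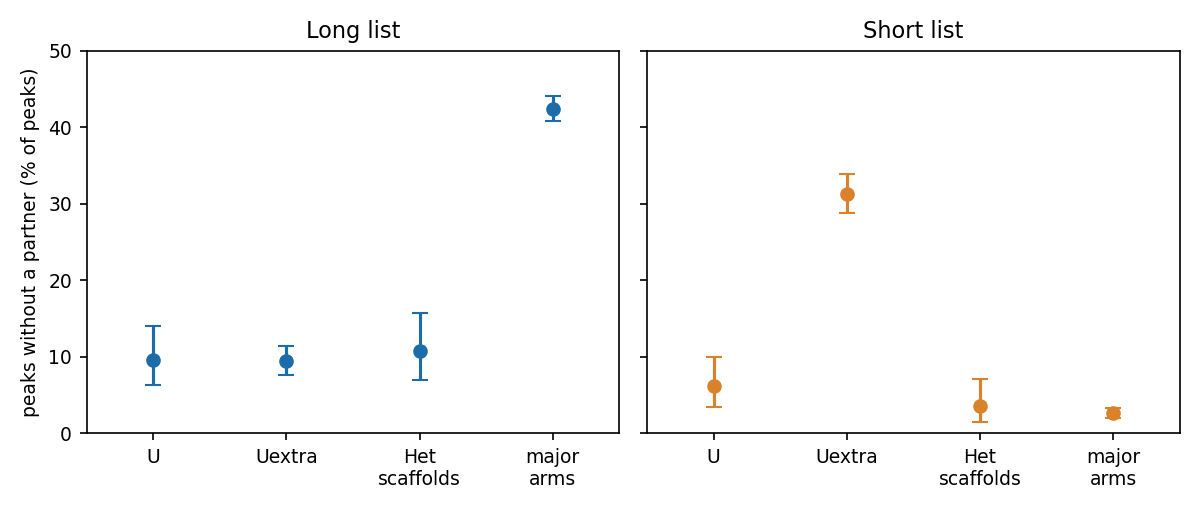
Share of peaks with no partner in the other list (percent, points) with exact 95% intervals (bars) for U, Uextra, the Het scaffolds and the major arms. U was at 9.60% in the long list and 6.15% in the short list, near the Het scaffolds in both, while the arms were at 42.4% in the long list and Uextra at 31.3% in the short list.

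The U peaks without a partner were mostly weak and narrow in the long list. Of its 24, 18 lay in the weakest 20% of the long list, and their median percentile was 12.6 (7.37 to 19.9), against 66.2 (57.6 to 71.7) for U peaks with a partner. Their widths ran from 82 to 256 bp. Within that weakest 20%, 43.9% of U peaks lacked a partner (28.5 to 60.3), against 45.1% of Uextra peaks (37.1 to 53.3), 56.8% of Het peaks (39.5 to 72.9) and 89.2% of arm peaks (86.8 to 91.3). In the strongest 20% it was 0 of 79 U peaks, with an exact upper bound of 4.56% and a bound of 3.80% by the rule of 3 counts. The other classes were alike there, with 0 of 605 arm peaks, 0 of 52 Het peaks and 2 of 290 Uextra peaks. The 2 U peaks without a partner in the stronger 50% of the long list were the peak at 5304745 beside the dominant region and one from 5630800 to 5630983, 184 bp wide with a −log10 q of 2.98. The short-list peak nearest to 5630800 was 47002 bp away. The next strongest were from 6559478 to 6559625, from 7872291 to 7872404 and from 5426055 to 5426185, with −log10 q of 2.46, 2.16 and 2.06. A group of 3 peaks without partners stood together between 3341379 and 3344139.

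In the short list, 15 U peaks had no partner, and 4 of them were in the stronger 50% of the list. Their median percentile was 6.43, but its interval of 1.79 to 62.6 spans both kinds. The strongest ran from 1941252 to 1942053, 802 bp wide with a −log10 q of 4.26, and stood at percentile 82.9. The nearest long-list peak was 54255 bp away. The others ran from 9692063 to 9692501 (439 bp, −log10 q of 3.75), from 2769087 to 2769288 (202 bp, 4.09) and from 5528586 to 5528929 (344 bp, 2.90). The next, from 7934433 to 7934818, stood at percentile 33.4 with a −log10 q of 1.76. Of the other 10, each lay in the weakest 20% of the short list.

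Paired U peaks were placed and shaped alike. Over 214 one-to-one pairs, the log2 ratio of width in the long list over width in the short list had a median of 0.016 (0.005 to 0.029), against 0.20 (0.18 to 0.21) over 1984 arm pairs, with median widths on U of 298 bp in the long list and 290 bp in the short list. On U 135 pairs were wider in the long list, 74 in the short list and 5 equal. The share wider in the long list was 63.1%, against 76.5% of all pairs. Both ends lay within 10 bp of each other in 122 pairs, or 57.0% of U pairs against 34.1% of all pairs and 19.6% of arm pairs. Summits were at the same base in 115 pairs and within 10 bp in 174, and the greatest distance was 636 bp. The rank order of the 214 pairs by strength was also alike in the lists, with a Spearman rho of 0.97, against 0.85 over the arm pairs. These points share the genome, the peak caller and possibly libraries, so rho is given as a description without a test.

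**Figure D3:**
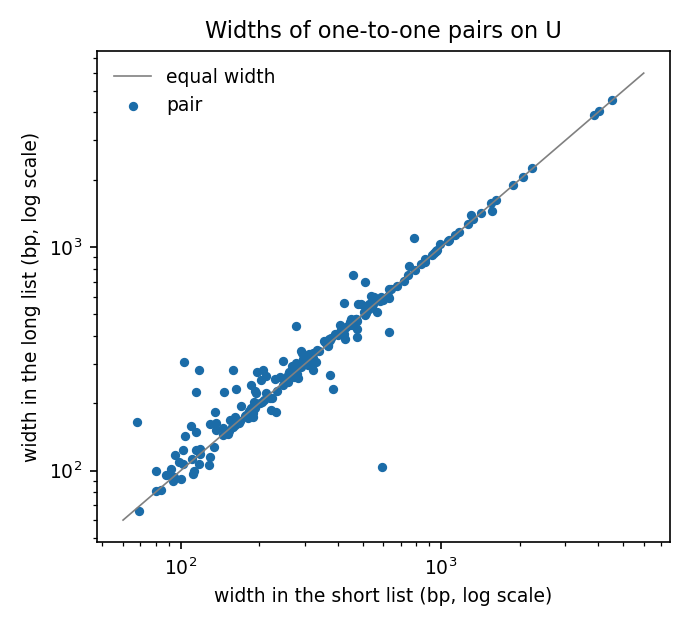
Width in the long list against width in the short list (bp, log scales) for the 214 one-to-one pairs on U, with a line of equal width. Long pairs lie on the line and the scatter grows below about 1000 bp, with 1 pair far under the line at 104 bp in the long list and 592 bp in the short list.

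A few pairs did differ in width, and they are given in the order of their width ratio. The largest ratio of the long list over the short list was at the peak from 8749539 to 8749845, 307 bp, whose short-list partner ended at 8749643 and was 103 bp wide. By ratio it was followed by a pair starting at 4252954, 165 bp in the long list against 68 bp in the short list, and one starting at 240756, 282 bp in the long list against 117 bp in the short list. The pair starting at 9319162 had 224 bp in the long list against 114 bp in the short list. The pair starting at 5978706 had 281 bp in the long list against 159 bp in the short list. In the other direction, a long-list peak from 3229377 to 3229480, 104 bp, lay within a short-list peak from 3229258 to 3229849 of 592 bp, a log2 ratio of -2.51. The next by ratio were the pairs starting at 6402177, with 231 bp in the long list against 383 bp in the short list, and at 6047004, with 418 bp in the long list against 631 bp in the short list. After them came the pairs starting at 244713, with 267 bp in the long list against 374 bp in the short list, and at 6110477, with 183 bp in the long list against 233 bp in the short list. The summits of these 10 pairs lay at most 39 bp apart. In base pairs the order differs. The largest excess of the long list was 310 bp at the pair starting at 3694131, followed by 289 bp at 2473706, where the long-list peak was 746 bp against 457 bp in the short list.

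Some regions were 1 peak in one list and 2 in the other. On U, 6 long-list peaks each spanned 2 short-list peaks, and 3 short-list peaks each spanned 2 long-list peaks. The dominant region is one of the 6. Among the others, the long-list peak from 463 to 1968 was split at 640 in the short list, and the one from 8911557 to 8912158 was split at 8911846. On the other side, the short-list peak from 1041917 to 1042655, 739 bp with an area of 719, spanned 2 small long-list peaks with areas of 79.5 and 24.2. Areas of different lists may not be on the same scale.

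Peaks were spread unevenly along U, and in the same way in both lists. The first 2 Mb held 66 long-list and 67 short-list peaks, and the bin from 9 to 10 Mb held 54 long-list and 51 short-list peaks, the highest of the 11 bins of 1 Mb. The third bin had 9 peaks in each list. Of 101 bins of 100 kb, 31 held no long-list peak, 28 no short-list peak, and 27 neither. The fullest was from 9.6 to 9.7 Mb with 13 peaks in each list. It was followed by the bin from 0.2 to 0.3 Mb with 11 in each, and then in the long list by the bin from 7.8 to 7.9 Mb, with 9 long-list and 7 short-list peaks. The longest stretch without a long-list peak was 586708 bp, from 1886997 to 2473706. The longest without a short-list peak was 531929 bp, from 1942053 to 2473983, since its strongest peak without a partner falls in that stretch. The interior bin from 6 to 7 Mb held 38 long-list and 36 short-list peaks, more than the first Mb with 26 in each. Position on U reflects the order of the pieces and not a place on a chromosome.

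Dense stretches of U differed in how their peaks were grouped. Peaks with gaps of up to 5 kb were joined into clusters. In the first 2 Mb the long-list peaks formed 15 clusters, a mean of 4.40 peaks each, and the short-list peaks formed 16 clusters, 4.19 each. From 9 to 10 Mb they formed 40 clusters in the long list, 1.35 peaks each, and 38 in the short list, 1.34 each. From 6 to 7 Mb there were 17 clusters in the long list, 2.24 peaks each, and 16 in the short list, 2.25 each. The median peak of the first 2 Mb stood at percentile 56.7 of the long list (47.1 to 70.4) and 57.3 of the short list (43.3 to 69.1). From 9 to 10 Mb it stood at 78.8 in the long list (58.0 to 86.0) and 78.9 in the short list (62.0 to 83.1), with median widths of 341 bp in the long list and 362 bp in the short list. These intervals overlap. Over all of U, peaks that stood alone had a median percentile of 70.5 in the long list (55.5 to 82.4, 79 peaks) and 73.3 in the short list (57.8 to 80.2, 86 peaks). Those in clusters of 3 or more had 54.5 in the long list (46.6 to 61.6, 123 peaks) and 56.9 in the short list (43.3 to 65.6, 114 peaks), and again the intervals overlap.

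**Figure D4:**
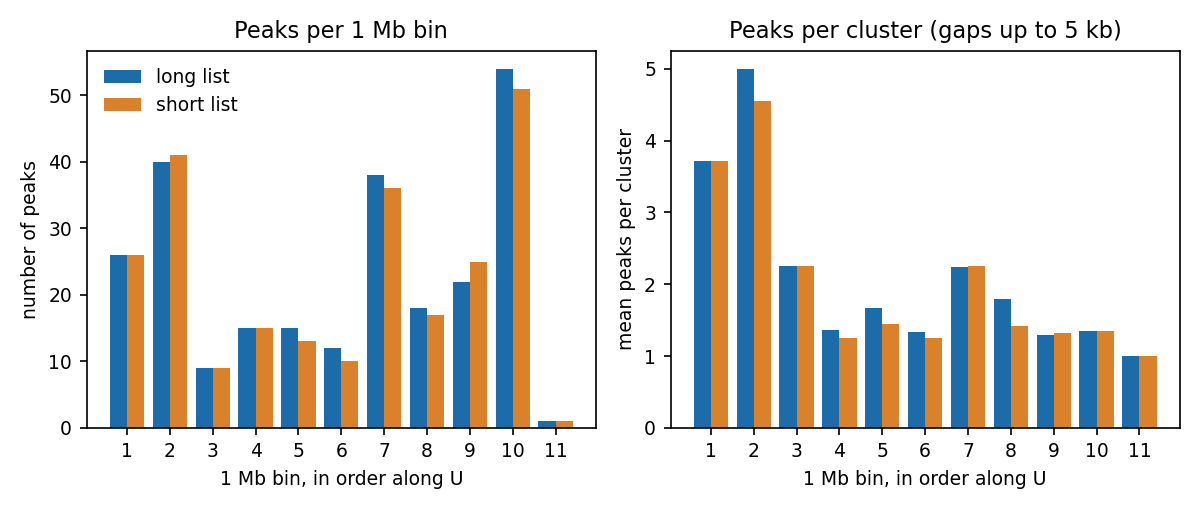
Number of U peaks (left) and mean number of peaks per cluster (right) in each bin of 1 Mb, in order along U, for the long list and the short list. The lists follow each other closely, and bin 10 has the most peaks (54 in the long list, 51 in the short list) in small clusters, while bin 2 has about 5 peaks a cluster.

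Spacing on U was a mixture of short and long distances. The gap from the end of a peak to the start of the next had a median of 6267 bp in the long list, with quartiles of 420 and 44067 bp, and of 9647 bp in the short list, with quartiles of 458 and 51838 bp. Gaps of up to 1 kb made up 34.5% in the long list and 34.2% in the short list, and gaps over 10 kb made up 48.2% in the long list and 49.4% in the short list. In the long list the share of gaps up to 1 kb was 64.4% on the Het scaffolds, 39.2% on the arms and 9.99% on Uextra. That share in the short list was 63.7% on the Het scaffolds, 38.9% on the arms and 14.0% on Uextra. The share on U lay between those of Uextra and the Het scaffolds.

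Joining gaps of up to 1 kb gave 164 runs in the long list and 161 in the short list. Single peaks made up 122 runs in each list, and runs of 3 or more peaks numbered 22 in the long list and 23 in the short list. All 22 in the long list and all 23 in the short list overlapped a run of the other list. So did most U runs of any size, 91.5% of the 164 in the long list and 93.8% of the 161 in the short list. The longest was the dominant region, 15357 bp with 2 peaks in the long list and 14960 bp with 2 in the short list. The second was 6017 bp in the long list, from 1880981 to 1886997, with 7 peaks that filled 55.2% of it. Its short-list counterpart was 5848 bp with 7 peaks. The run from 240133 to 244979 in the long list, 4847 bp, also had 7 peaks, and in the short list it was 4896 bp with 7 peaks. The long list's next were the single peak starting at 1092979, of 4526 bp, and a run of 6 peaks from 1543803 to 1548033, of 4231 bp. A short-list run of 6 peaks from 1293424 to 1298099, 4676 bp long, came before the peak starting at 1092980. Among clusters of 5 or more peaks, no even spacing stood out in the long list, where at most 2 distances per cluster lay within 10% of the cluster's median. Up to 3 did so in the short list, of 4 distances in the cluster from 75 to 2883, 5 in that from 1303634 to 1307026 and 6 in that from 1881139 to 1886986. With an odd number of distances the median is 1 of them and is always counted, so counts are not strictly comparable between clusters.

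Some U peaks had the deposited values of a peak elsewhere. In the long list, 3 neighbouring U peaks between 6334876 and 6336368 had the same width, area and summit −log10 p, as deposited, as 3 peaks on 2RHet between 1260240 and 1261732. The widths were 578, 414 and 251 bp, the areas 155, 61.9 and 50.1, and the −log10 q 2.06, 1.92 and 1.94. Each start lay 5074636 above its counterpart, and each summit was at the same distance from the start of its peak. The short list had the same stretch as 2 peaks on U, of 598 and 782 bp with areas of 246 and 93.1. The 2RHet stretch again held 2 peaks with the same values at the same offset of 5074636. So the lists differed in how the stretch was cut, and within each list both places were alike to the last deposited digit. In the long list 12 peaks (0.233%) and in the short list 4 peaks (0.0993%) had the width, area and p of another peak, and the U and 2RHet peaks were 6 of these in the long list and 4 in the short list. Neither place had another peak within 5 kb in either list. A U peak and a Uextra peak, starting at 7216953 and 1047925, shared a −log10 p of 4.67 in the long list but not a width, at 309 and 231 bp. Those peaks shared a −log10 p of 4.28 in the short list, with 248 and 181 bp. A −log10 p shared with another peak was found in 1.6% of U peaks against 15.6% of all peaks in the long list, and 2.87% of U peaks against 6.68% of all peaks in the short list. In the long list the share was 21.4% on the arms, 2.80% on the Het scaffolds and 0.605% on Uextra. In the short list it was 11.1% on the arms, 1.51% on the Het scaffolds and 0.534% on Uextra. The other U peaks of the short list with such a p started at 1089348 and 6559959, which shared theirs, at 1091618 and at 1394297. How reads with several equally good placements were counted is not given in the sources used here.

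Another 3 clusters of U were alike in how they opened, and they were picked after their values were seen. In the long list they started at 276344, 977467 and 1293385. Each opened with a peak of 227, 223 and 231 bp and a −log10 q of 2.53, 2.62 and 2.45. A stronger peak followed with its summit 2620, 2623 and 2620 bp further on and a −log10 q of 5.004, 5.008 and 5.036. The short-list clusters started at 276351, 977473 and 1293424. The distance was 2590, 2603 and 2590 bp, the −log10 q of the opening peak was 1.97, 2.02 and 2.04, and that of the stronger peak was 4.63, 4.64 and 4.70. Weaker peaks lay between them in the clusters starting at 977473 and 1293424. The rest of the clusters differed. The last summit lay 3125, 3961 and 1919 bp after the strong one in the long list, and the strong peak was 1328, 520 and 506 bp wide. The clusters that start at 977467 and 1293385 in the long list matched each other at 4 summits within 20 bp in both lists. Neither of them matched the cluster that starts at 276344 in the long list and 276351 in the short list. A match by this rule was seen in 2 of 435 pairs of U clusters in the long list (0.460%) and in 2 of 351 in the short list (0.570%). These totals, and those below, include clusters of 3 peaks, which cannot match at 4 summits. The shares are therefore lowered by amounts that were not counted and may differ between U, arm and Het clusters, so they cannot be compared. Between U and arm clusters it was seen in 30 of 12390 pairs in the long list (0.242%) and in 26 of 6939 in the short list (0.375%). Between U and Het clusters it was seen in 1 of 810 pairs in the long list (0.123%) and in 7 of 675 in the short list (1.04%), and the short-list cluster starting at 1293424 was among those that matched a 3RHet cluster.

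**Figure D5:**
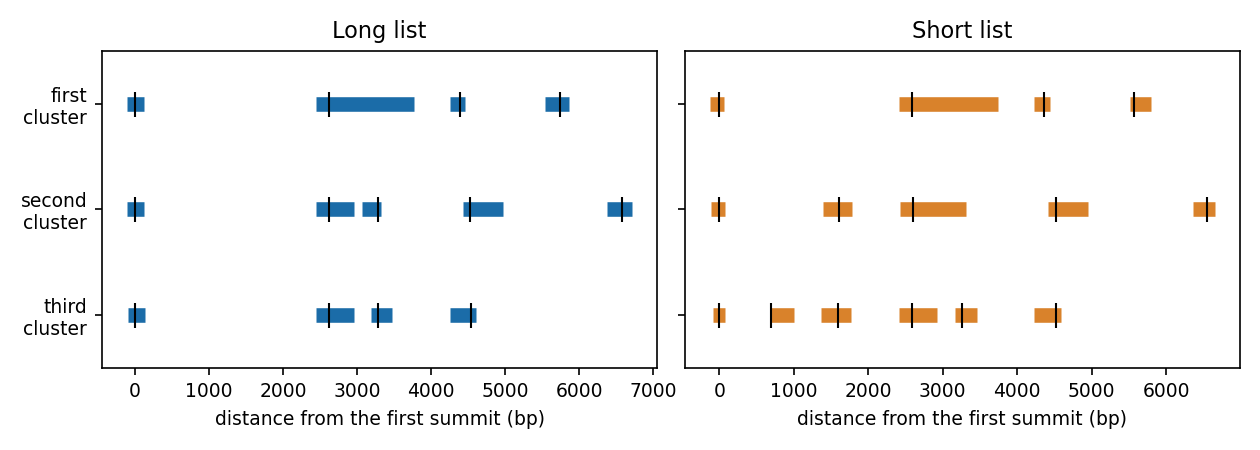
Peaks (bars) and summits (ticks) of the clusters that start at 276344, 977467 and 1293385 in the long list and at 276351, 977473 and 1293424 in the short list, as distance from the first summit (bp). The summit of the strong peak recurs 2620 to 2623 bp from the first in the long list and 2590 to 2603 bp in the short list, while the later peaks differ.

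Another recurrence was seen within 1 cluster, also picked after its values were seen. From 1134850 in the long list, peaks of 100 and 258 bp had summits 582 bp apart and −log10 q of 2.31 and 5.97. Further along the same cluster, peaks of 97 and 286 bp, starting at 1140195 and 1140721, had −log10 q of 2.18 and 6.07. Their summits lay 5343 and 5925 bp from the first one, again 582 bp apart. The first pair was also 582 bp apart in the short list, with −log10 q of 1.92 and 5.79. The strong peak of the second, 276 bp wide with a −log10 q of 5.76, was 5925 bp from the first summit, but the weak one was not in the short list. Whether these recurrences are copies of a repeat was not tested.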

How the data were processed

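ATAC-seq of S2 cells was represented by 2 peak lists that the authors deposited without a header, with 10 columns in narrowPeak order. Per the submitters' processing notes reads were placed on dm3 and the programs named are an aligner, Bowtie2, and a peak caller, Genrich 0.5. The aligner's version, any filters, whether libraries were pooled and how multiply placed reads were handled are not stated there. Both lists hold only regions that passed the caller, with a lowest −log10 q of 1.54 in each and a lowest area of 20.0 in the long list and 20.1 in the short list. The deposited signal column was read, from its place in the format, as the area under the significance curve. In all 5145 and 4027 rows the deposited score was, within 0.5, the area per base times 1000 with a ceiling of 1000, so it adds nothing to the area. The deposited p-value and q-value columns are −log10 values. Among the other deposited columns, starts, ends and summit offsets are whole numbers. Area and significance depend on the depth behind a list, which is unknown, so they were ranked within a list only. Where values of both lists are given side by side, their difference cannot be read as a difference in accessibility.

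Coordinates are 1-based in dm3. Computations used scipy 1.17.1, pandas 2.3.3 and numpy 2.4.6 under Python 3.11.15. Pairs needed an overlap of 1 bp. Shares carry exact Clopper-Pearson intervals, medians the binomial order-statistic interval, and odds ratios Woolf's, all at 95%. Runs joined gaps of up to 1 kb and clusters gaps of up to 5 kb. Layouts of clusters of 3 or more peaks were compared by shifting one over the other in both orientations, and matched when 4 summits fell within 20 bp. The code was tested on simulated lists. The members and most choices were made with earlier results of these data known. The peaks named are the 10 strongest on U, the 5 strongest without a partner, the 5 pairs at each end of the width ratio, the 5 longest runs and the 3 fullest bins of 100 kb, plus peaks said in the text to be picked later and the examples of split, shared-value and recurring peaks. Alternatives were other overlaps, gaps and rankings, and subsets of the lists.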

Additional observations from a re-analysis of the deposited data

How the results depend on the processing

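Over 20 results and 11 alternatives, 15 of 52 values moved and 37 did not, where a value counted as moved when it left the reported value's interval, changed by over 1.5 times or, for rho, by over 0.01. A change of sign was looked for in the width ratio only. With a reciprocal overlap of 50%, 85.6% of long-list and 87.7% of short-list U peaks had a partner, and with the long list trimmed to the length of the short list the shares were 97.6% of long-list and 84.0% of short-list U peaks. U made up 5.60% of the long list and 6.91% of the short list in the stronger 50% of each, and 6.02% of the long list and 8.99% of the short list without Uextra. In the stronger 50% the bin from 9 to 10 Mb held 26.6% of the short-list U peaks. A gap of 500 bp gave 15 runs of 3 or more peaks in the short list. Leaving out U clusters of 3 or more peaks, chosen after seeing the data, put the median U peak of the long list at percentile 69.7 by strength and 74.0 by −log10 p and by −log10 q, and that of the short list at 72.3 by −log10 p and by −log10 q. The width ratio kept its sign in each of the 3 settings tried. Leaving out the dominant region, also chosen later, took U to 5.32% of long-list bases and 6.49% of short-list bases. No paired analysis was possible because the 2 lists carry no library or replicate name, and for the same reason no replicate could be left out. Unknown depth limits how far the absence of a weak peak in 1 list can be read.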
